A study of Mus musculus with 28 samples.

Results

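The unfolded protein response and the integrated stress response are followed here through 10 mouse genes: the transcription factor genes Atf4, Ddit3 and Xbp1, the stress response targets Trib3, Chac1, Asns, Sesn2 and Ddit4, and the endoplasmic reticulum genes Hspa5 and Herpud1. They were chosen by name from the 23712 genes measured, with earlier results of these data known. Ddit3 was included for its fall by 48 h and its low level afterwards. All 10 passed the filter on low counts, which left 16499 genes to test. RNA sequencing had been done on C57BL/6 embryonic fibroblasts infected with pGCDNsam retroviruses carrying Hnf4alpha and 1 Foxa factor, on induced hepatocyte-like cells (iHep cells) made the same way, and on both reference cell types. The cells 48 h after infection carried Foxa1, Foxa2 or Foxa3 with Hnf4alpha (2 libraries each). The Foxa3 del2 cells carried a mutant of Foxa3 with Hnf4alpha (2 libraries); their title gives 48 h, their stage label gives iHep, and the labels do not say what the mutant lacks, so they are set here against both stages. The iHep cells carried Foxa1 (6 libraries), Foxa2 (4 libraries) or Foxa3 (6 libraries), each with Hnf4alpha. The uninfected mouse embryonic fibroblasts (MEFs, 2 libraries) came from embryos of day 13.5, an age given for every infected group as well. The hepatocytes (Hep, 2 libraries) were freshly isolated by collagenase from livers of 10-week-old mice. None of the 28 libraries is from fibroblasts given an empty virus, so infection and the 2 factors together separate every infected group from MEFs. The labels do not say that replicates were separate cultures or animals, so the p-values measure the spread between libraries, which may be technical. In bulk RNA, fewer expressing cells and less RNA per cell cannot be told apart.

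Cells meet misfolded protein in the endoplasmic reticulum with the unfolded protein response, which is relayed by the sensors IRE1, ATF6 and PERK. IRE1 splices the Xbp1 mRNA, and XBP1 and ATF6 raise chaperones and degradation factors such as Hspa5 and Herpud1. PERK and related kinases phosphorylate the initiation factor eIF2, which slows translation in general but favours translation of the Atf4 mRNA. ATF4 then raises genes of amino acid supply and stress signalling, among them Asns, Chac1, Trib3, Sesn2 and Ddit3, and this arm is called the integrated stress response. Hepatocytes are secretory cells with a large endoplasmic reticulum, and XBP1 is known for its role in hepatic protein secretion and lipid synthesis.

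Values are expected counts per gene, given as CPM, counts scaled to a common library size after TMM normalisation, and a gene is called changed at an adjusted p under 0.05. The group totals ran between 14592820 counts in a Hep library and 51743266 in a Foxa3 del2 library. The TMM factors were 0.522 and 0.550 in the Hep libraries and 0.942 and 0.954 in the MEF libraries. FPKM, counts per transcript length and library total, carries no TMM scaling, so CPM sets Hep higher against MEFs than FPKM does. The libraries fall into 2 sets by the noncoding RNA Rn7sk. It stood at 17.2 to 72.5 CPM in all 6 libraries at 48 h with a full-length factor, in replicates 4 to 6 of Foxa1 iHep cells and in replicates 2 to 6 of Foxa3 iHep cells. It stood at 0 to 5.98 CPM in all MEF, Hep, Foxa2 iHep and Foxa3 del2 libraries, in replicates 1 to 3 of Foxa1 iHep cells and in replicate 1 of Foxa3 iHep cells. The comparisons of 48 h cells with MEFs, of Foxa3 del2 cells with 48 h Foxa3 cells and of Foxa2 iHep cells with 48 h Foxa2 cells therefore set one library set wholly against the other, and stage or factor and set cannot be told apart there. A term for library set, used below as an alternative, is estimated from Foxa1 and Foxa3 iHep cells, the only groups that hold both sets. In the comparisons just named it is carried over from those iHep cells and not measured. Summed fibroblast markers stood at 36999 to 38297 CPM in MEFs, at 22415 to 24909 CPM at 48 h and at 17.8 to 407 CPM in iHep cells. Summed hepatocyte markers stood at 2140 to 29551 CPM in iHep cells, against 194433 to 214309 CPM in Hep. Summed leukocyte and Kupffer cell markers stood at 19.4 and 251 CPM in the MEF libraries, at 2.22 to 4.47 CPM at 48 h, at 27.1 to 30.3 CPM in Foxa3 del2 cells, at most 0.620 CPM in iHep cells and at 335 to 411 CPM in Hep. Of their 9 measured genes Clec4f was at 0 in MEFs and in every infected group.

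The promoters of 5 members hold matches to sequence elements through which these pathways are known to act. Which arm each gene answers to in these cells was not tested. The sequences are from RefSeq on GRCm38.p6, within 250 bases before to 50 bases after the gene start, and all 10 members had a window. The capitals mark a match to the C/EBP-ATF response element TGATGNAA, bound by ATF4, in Chac1, Asns, Herpud1 and Trib3; to the endoplasmic reticulum stress element, CCAAT and CCACG with 9 bases between them, in Hspa5; and to its second form, ATTGG and CCACG with 1 base between them, which is the second run of capitals in Herpud1.
Chac1, chr2:119351034-119351071, plus strand: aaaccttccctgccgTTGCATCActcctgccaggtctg
Asns, chr6:7693210-7693269, minus strand: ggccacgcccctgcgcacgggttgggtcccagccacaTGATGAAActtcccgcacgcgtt
Trib3, chr2:152344031-152344056, minus strand: tagctcaggtTTACATCAgccgggcg
Hspa5, chr2:34772010-34772058, plus strand: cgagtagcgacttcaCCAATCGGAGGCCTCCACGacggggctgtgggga
Herpud1, chr8:94386302-94386401, plus strand: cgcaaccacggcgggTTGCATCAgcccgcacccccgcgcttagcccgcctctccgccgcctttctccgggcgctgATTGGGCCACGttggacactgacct
Both strands were searched, and the element stands reversed in Chac1, Herpud1 and Trib3. It was found in 4 of 10 members and in 3.97% of the 32851 promoters in the table. The element of Hspa5 occurred in 0.119% of those promoters and the second form in 0.0365%. Neither TGACGTGG, bound by spliced XBP1, nor the cyclic AMP response element TGACGTCA was found in a member's window; they occurred in 0.676% and 1.79% of the promoters. A match is a description of the letters and says nothing of whether a factor was bound in these cells.

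MEFs held the highest mean level of Atf4, Ddit3, Trib3, Chac1, Asns and Sesn2 among the 9 groups. Trib3 and Chac1 were lower in every infected group, and Ddit3, low at 48 h already, was lower again in iHep cells with each factor. The endoplasmic reticulum genes Hspa5 and Herpud1, with Xbp1, were called higher in Foxa1 and Foxa3 iHep cells than at 48 h, but not in Foxa2 iHep cells. Each of these calls was lost without either 48 h library. For no member was the change between 48 h and iHep called different between factors, and the Foxa2 comparison also crosses the library sets. At 48 h Hspa5, Herpud1 and Xbp1 were not called different from MEFs, which held for Atf4, Asns, Sesn2 and Ddit4 as well. In CPM Xbp1 and Herpud1 had their highest means in Hep. In FPKM Herpud1 averaged 75.5 in Hep, under its means of 90.7 in Foxa1 and 80.7 in Foxa3 iHep cells. Ddit4, which answers to many hormonal and metabolic signals, was higher in all 3 kinds of iHep cell than at 48 h. Per length of transcript, Hspa5 was the most abundant member in MEFs, at 483 ± 92.1 FPKM, and Chac1 the least, at 14.5 ± 4.53 FPKM (SD, n = 2 each).

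**Figure D1:**
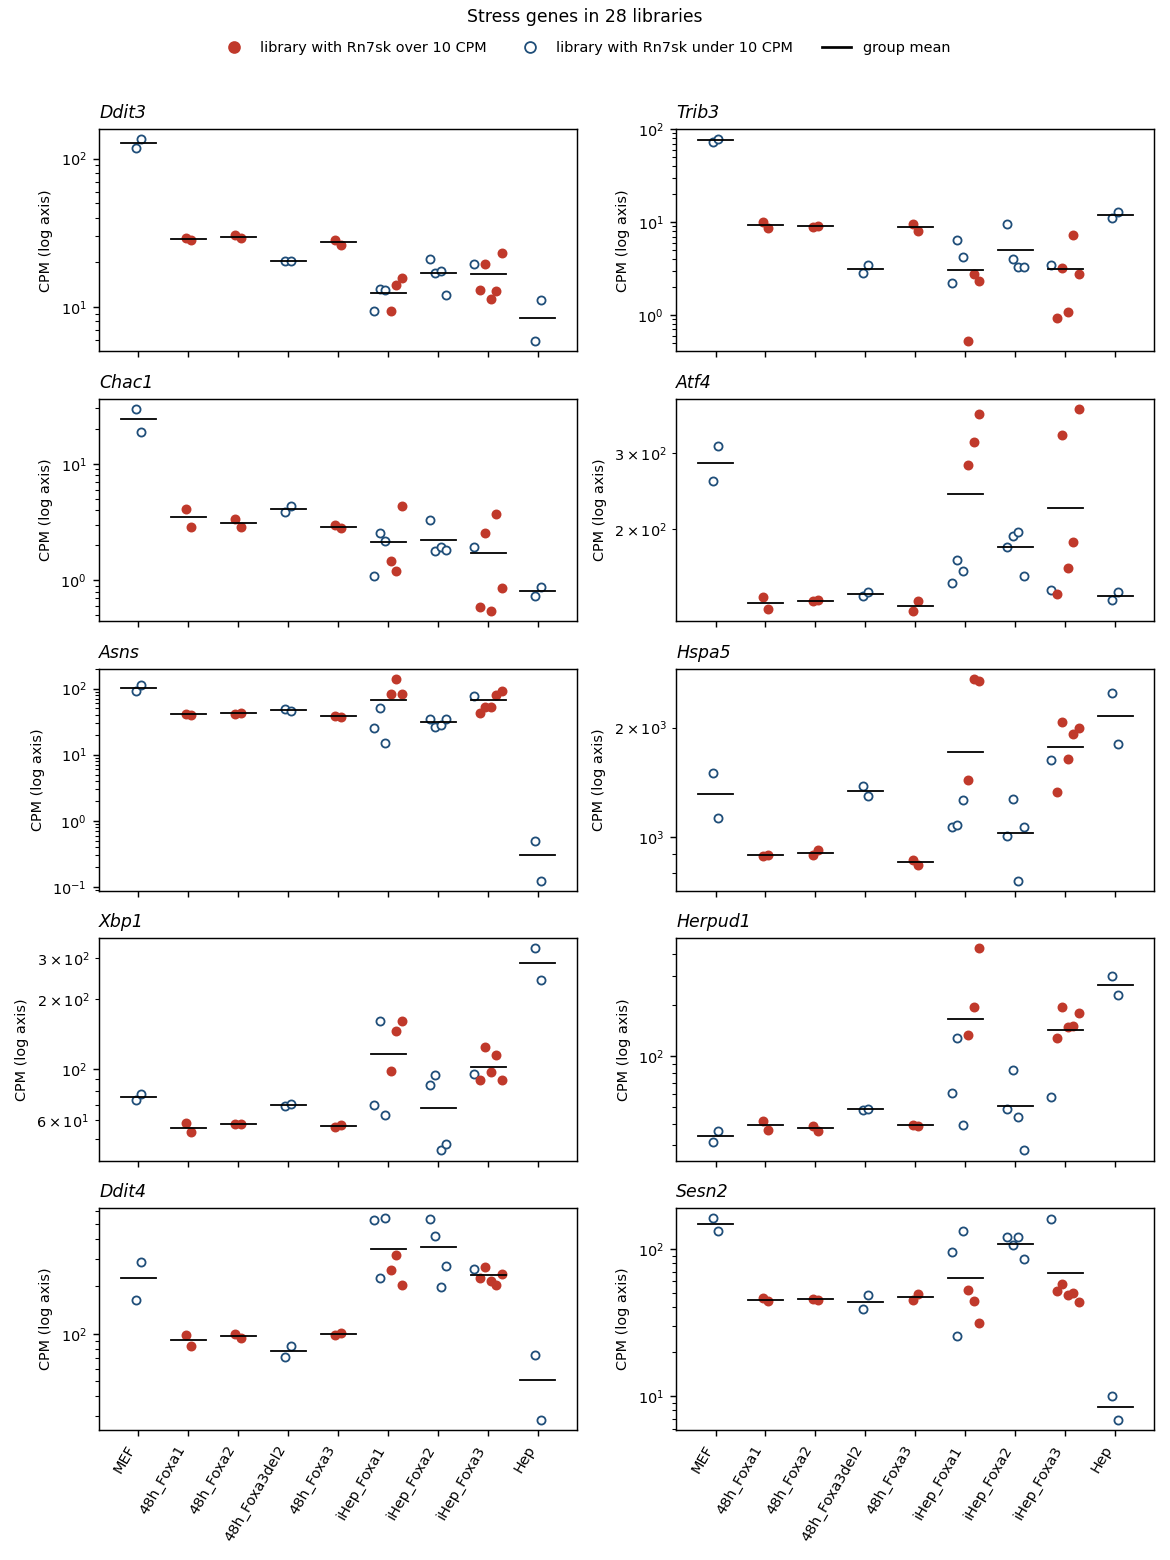
Level of each of the 10 genes in every library, in CPM on a log axis, with the 9 groups along the horizontal axis. Filled red points are libraries with Rn7sk over 10 CPM, open points those under it, and the black bar is the group mean. Ddit3, Trib3 and Chac1 lie highest in MEFs, and Asns falls to 0.490 and 0.125 CPM in the Hep libraries.

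Ddit3 encodes CHOP, a transcription factor of prolonged stress. It stood at 118 and 135 CPM in MEFs. At 48 h it stood at 29.3 and 28.5 CPM with Foxa1, at 30.5 and 29.2 CPM with Foxa2 and at 28.1 and 26.4 CPM with Foxa3, and the Foxa3 del2 libraries held 20.5 and 20.4 CPM. Every infected library thus lay under both MEF libraries. In iHep cells Ddit3 ran between 9.38 and 15.7 CPM with Foxa1 (median 13.1), stood at 21.2, 16.8, 17.4 and 12 CPM with Foxa2, and ran between 11.4 and 23.0 CPM with Foxa3 (median 16.3). The Hep libraries, at 5.88 and 11.1 CPM, reached into the range of Foxa1 iHep cells only. Its fall by 48 h and its low level afterwards are the pattern for which Ddit3 was included. Its log2 differences from MEFs are therefore given with no test: -2.13, -2.08 and -2.22 at 48 h with Foxa1, Foxa2 and Foxa3, -2.63 in Foxa3 del2 cells, -3.34, -2.91 and -2.93 in the 3 kinds of iHep cell, and -3.90 in Hep.

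Between 48 h and iHep, a comparison that holds no MEF library, Ddit3 fell further with each factor. Its low iHep level was part of the pattern for which it was included. The tests of Ddit3 in this paragraph are not independent of that choice. The log2 difference of Foxa1 iHep cells from 48 h Foxa1 cells was -1.21 (SE 0.25, adjusted p = 0.000596 by edgeR's quasi-likelihood test with Benjamini-Hochberg adjustment), and the call was kept without any 1 of the 8 libraries. With Foxa2 it was -0.82 (SE 0.28, edgeR adjusted p = 0.0219), and the call was lost without either 48 h library or iHep replicate 4, where the adjusted p rose to 0.115 at most, and with library set as a term, at 0.067. With Foxa3 it was -0.72 (SE 0.26, edgeR adjusted p = 0.0301), and the call was lost without either 48 h library or iHep replicate 2, 4 or 5, at an adjusted p of 0.167 at most. Within the libraries of high Rn7sk alone the differences were -1.16 with Foxa1 and -0.80 with Foxa3, and both were called. Ddit3 remained higher in Foxa2 iHep cells than in Hep by 0.99 (SE 0.30, edgeR adjusted p = 0.00764) and in Foxa3 iHep cells by 0.97 (SE 0.29, edgeR adjusted p = 0.00656). Without Hep replicate 1 these calls were lost, at adjusted p of 0.187 and 0.194. In RefSeq's annotation Ddit3 overlaps Mbd6 and Mars1, so reads of the overlap may be shared, which was not tested. At 48 h with Foxa1, Foxa2 and Foxa3, Mars1 differed from MEFs by -1.20, -1.26 and -1.25 on the log2 scale. Mbd6 differed by -1.03, -1.07 and -0.91, the last not called. In Hep the differences from MEFs were -0.33 for Mars1 (edgeR adjusted p = 0.330) and -1.17 for Mbd6 (edgeR adjusted p = 0.00106).

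Atf4 encodes the transcription factor at the centre of the integrated stress response, whose output is set largely at translation, a step these libraries do not measure. It stood at 259 and 310.2 CPM in MEFs. At 48 h it stood at 139.7 and 131 CPM with Foxa1, at 137 and 138 CPM with Foxa2, and at 129.9 and 137 CPM with Foxa3. All 6 of these libraries lay under both MEF libraries, and the Foxa3 del2 libraries, at 141 and 144 CPM, did too. The differences from MEFs at 48 h, of -1.07, -1.05 and -1.09 on the log2 scale, did not pass the test (edgeR adjusted p = 0.134, 0.141 and 0.128). With library set as a term they came to -1.98, -1.95 and -1.99 (edgeR adjusted p = 0.0089, 0.0092 and 0.0079). These values rest on a set difference carried over from iHep cells. In iHep cells Atf4 ran between 151 and 369 CPM with Foxa1 (median 225) and between 142 and 378 CPM with Foxa3 (median 175), and stood at 182, 193, 197 and 156 CPM with Foxa2. Hep, at 137 and 143 CPM, differed from MEFs by -1.02 (SE 0.43, edgeR adjusted p = 0.0477); without any 1 of the 4 libraries the call was lost, at an adjusted p of 0.239 at most, and DESeq2 did not make it (adjusted p = 0.106). Its range over groups was the narrowest of the 10 genes, with 2.13-fold between the highest and the lowest group mean.

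Xbp1 encodes the transcription factor that IRE1 activates by splicing. It stood at 73.3 and 77.8 CPM in MEFs and between 53.2 and 58.5 CPM in the 6 libraries at 48 h, a difference that did not pass the test (log2 -0.44, -0.38 and -0.41). Among iHep cells its range was 63.5 to 161 CPM with Foxa1 (median 121) and 89.7 to 124 CPM with Foxa3 (median 96.3), and it stood at 85.1, 94.4, 44.5 and 47.6 CPM with Foxa2. Hep, at 331 and 242 CPM, lay over every other library on that scale; in FPKM its lower library, at 59.3, lay under the highest Foxa1 iHep library, at 75.1. Xbp1 was higher in iHep cells than at 48 h by 1.06 with Foxa1 (SE 0.33, edgeR adjusted p = 0.0144) and by 0.85 with Foxa3 (SE 0.33, edgeR adjusted p = 0.0444). The Foxa1 call was lost without either 48 h library, at an adjusted p of 0.125 at most, and the Foxa3 call without either 48 h library or iHep replicate 3, 4 or 5, at 0.203 at most; both were kept in the libraries of high Rn7sk alone, at 1.26 and 0.83. Against Hep it was lower in all 3 kinds of iHep cell, by -1.30 with Foxa1 (SE 0.29, edgeR adjusted p = 0.000617), -2.08 with Foxa2 (SE 0.32, edgeR adjusted p = 8.04e-06) and -1.49 with Foxa3 (SE 0.29, edgeR adjusted p = 0.00013). By limma on log2(FPKM + 1) the Foxa1 and Foxa3 differences came to -0.43 and -0.51 and did not pass (limma adjusted p = 0.189 and 0.127). Hep differed from MEFs by 1.92 (SE 0.40, edgeR adjusted p = 0.000281).

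The files hold 2 transcripts of Xbp1, of 2264 and 2238 bases, which differ in length by the 26 bases that IRE1 removes. The shorter took 44.4% to 50.7% of the gene's expected counts, with a median over the 28 libraries of 48.7%. The 2 transcripts of Hspa5, on which IRE1 does not act, were split 49.2% to 50.5%, so the near-even share of Xbp1 is not read as a level of splicing. Between iHep groups the share was 46.7% ± 1.83 with Foxa2 (SD, n = 4) and 49.6% ± 0.922 with Foxa3 (SD, n = 6), which differed in a two-sided exact permutation test (p = 0.00952, adjusted over 3 comparisons 0.0286). With Foxa1 it was 49.0% ± 0.978 (SD, n = 6), and neither its difference from Foxa2 (adjusted exact p = 0.0714) nor from Foxa3 (adjusted exact p = 0.297) passed. The test does not account for the library set, and all Foxa2 libraries are of low Rn7sk while 5 of 6 Foxa3 libraries are of high Rn7sk. Within Foxa1 iHep cells the share was 50.6%, 49.3% and 49.3% in the high and 47.9%, 48.1% and 48.8% in the low libraries, with no overlap, so the factor and the set cannot be told apart in the Foxa2 difference.

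Trib3 encodes a pseudokinase that ATF4 and CHOP induce. It stood at 73.2 and 78.0 CPM in MEFs. At 48 h it stood at 10.1 and 8.67 CPM with Foxa1, at 8.87 and 9.09 CPM with Foxa2 and at 9.58 and 8.04 CPM with Foxa3, and in Foxa3 del2 cells at 2.86 and 3.45 CPM. The 48 h and MEF groups lay far apart, and the del2 libraries lay under both. In iHep cells it ran between 0.522 and 6.43 CPM with Foxa1 (median 2.57), between 0.930 and 7.28 CPM with Foxa3 (median 3.0), and stood at 9.53, 3.99, 3.27 and 3.29 CPM with Foxa2. Hep held 11.1 and 12.8 CPM, over every infected library on that scale; in FPKM it held 2.83 and 3.44, under the 4.25 to 5.40 FPKM of the 6 libraries at 48 h. Trib3 fell by 48 h by log2 differences of -3.01, -3.07 and -3.10 from MEFs (SE 0.83, 0.84 and 0.84; edgeR adjusted p = 0.0398, 0.0359 and 0.0350). Each of these calls was lost without any 1 of its 4 libraries, at adjusted p of 0.286, 0.252 and 0.268 at most, and with library set as a term, at 0.185, 0.169 and 0.166. In the iHep cells, with 4 or 6 libraries, the fall against MEFs was -4.62, -3.91 and -4.59 (SE 0.59, 0.66 and 0.58; edgeR adjusted p = 2.48e-06, 0.000121 and 1.88e-06) and was kept without any 1 library.

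Trib3 also fell between 48 h and iHep, by -1.60 with Foxa1 (SE 0.60, edgeR adjusted p = 0.0351) and -1.49 with Foxa3 (SE 0.60, edgeR adjusted p = 0.0499). The first call was lost without either 48 h library or iHep replicate 1, 5 or 6, at an adjusted p of 0.169 at most, and the second without any library but iHep replicate 5, at 0.222 at most. Within the high Rn7sk libraries alone both were called, at -2.33 and -1.55. Trib3 was lower in Foxa1 and Foxa3 iHep cells than in Hep, by -1.96 and -1.94 (SE 0.60 each, edgeR adjusted p = 0.0078 and 0.00798), and without Hep replicate 2 the adjusted p were 0.0558 and 0.0561. By limma on log2(FPKM + 1) neither passed (limma adjusted p = 0.067 and 0.0722), and with library set as a term the Foxa3 difference had an adjusted p of 0.178. Hep was lower than MEFs by -2.66 (SE 0.83, edgeR adjusted p = 0.00906), and without either Hep library the call was lost, at 0.066 at most.

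Chac1 encodes a gamma-glutamyl cyclotransferase that degrades glutathione and lies downstream of ATF4. It stood at 29.7 and 18.7 CPM in MEFs. At 48 h it stood at 4.11 and 2.88 CPM with Foxa1, at 3.38 and 2.86 CPM with Foxa2 and at 2.99 and 2.79 CPM with Foxa3, and the Foxa3 del2 cells held 3.90 and 4.33 CPM. No infected library reached the lower MEF library. In iHep cells it ran between 1.08 and 4.31 CPM with Foxa1 (median 1.82), between 0.545 and 3.69 CPM with Foxa3 (median 1.41), and stood at 3.32, 1.77, 1.92 and 1.82 CPM with Foxa2, a range that overlaps that at 48 h. Hep held 0.735 and 0.872 CPM, from 6 and 7 counts. The fall at 48 h was -2.79, -2.95 and -3.06 (SE 0.75, 0.76 and 0.76; edgeR adjusted p = 0.0362, 0.0290 and 0.0242). Each call was lost without any 1 of its 4 libraries, at 0.290, 0.232 and 0.231 at most, and with library set as a term, at 0.0695, 0.0545 and 0.0508. In iHep cells the fall against MEFs was -3.50, -3.45 and -3.82 (SE 0.53, 0.60 and 0.53; edgeR adjusted p = 2.02e-05, 0.000155 and 5.26e-06) and was kept without any 1 library. Hep was lower than MEFs by -4.91 (SE 0.87, edgeR adjusted p = 5.47e-05).

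Asns encodes asparagine synthetase, the best known amino acid response gene. It stood at 90.9 and 111 CPM in MEFs and between 36.6 and 42.4 CPM in the 6 libraries at 48 h, a difference in which the groups did not overlap but which did not pass the test (log2 -1.30, -1.27 and -1.42). The iHep libraries ran between 14.8 and 141 CPM with Foxa1 (median 66.0), between 41.9 and 91.8 CPM with Foxa3 (median 65.5), and stood at 34.8, 26.1, 28.2 and 34.0 CPM with Foxa2. Hep held 0.490 and 0.125 CPM, from 4 counts and 1 count, so that Asns had the widest range of the 10 genes, 329-fold between the highest and the lowest group mean. All 3 kinds of iHep cell were higher than Hep, with fitted log2 differences of 7.72, 6.62 and 7.73 (SE 0.90, 0.88 and 0.90; edgeR adjusted p = 1.59e-07, 1.27e-06 and 1.42e-07), whose size is set by those few counts. Hep was lower than MEFs by a fitted -8.34 (SE 0.94, edgeR adjusted p = 1.57e-07). Foxa2 iHep cells were lower than MEFs by -1.72 (SE 0.50, edgeR adjusted p = 0.0122), and without MEF replicate 2 this call was lost, at 0.0953.

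Sesn2 encodes a leucine sensor that restrains the growth kinase complex mTORC1, and Ddit4 encodes REDD1, which restrains the same complex and is induced by hypoxia, glucocorticoids and p53. Sesn2 stood at 162 and 132 CPM in MEFs and between 43.9 and 49.0 CPM in the 6 libraries at 48 h, with differences of -1.70, -1.70 and -1.65 that did not pass (edgeR adjusted p = 0.098, 0.0982 and 0.109). DESeq2 called all 3 (adjusted p = 0.0422, 0.0405 and 0.0490), while library set as a term brought them to -0.46, -0.46 and -0.41. In iHep cells Sesn2 stood at 119.5, 105, 121 and 85.3 CPM with Foxa2, and ran between 25.7 and 132 CPM with Foxa1 (median 48.6) and between 43.4 and 159 CPM with Foxa3 (median 51.0). Hep, at 10.0 and 6.85 CPM, lay under every other library. Sesn2 was higher in iHep cells than in Hep by 2.91 with Foxa1, 3.67 with Foxa2 and 3.02 with Foxa3 (SE 0.61, 0.65 and 0.61; edgeR adjusted p = 0.000272, 4.28e-05 and 0.000188). Hep was lower than MEFs by -4.12 (SE 0.69, edgeR adjusted p = 2.91e-05). Foxa1 iHep cells were lower than MEFs by -1.21 (SE 0.46, edgeR adjusted p = 0.0409), a call lost without either MEF library or iHep replicate 2, 4, 5 or 6, at 0.193 at most, and among the low Rn7sk libraries alone, at -0.85 with an adjusted p of 0.082. With library set as a term it was lost too, at -0.67 with an adjusted p of 0.16.

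Ddit4 stood at 163 and 287 CPM in MEFs. At 48 h it stood at 98.6 and 83.7 CPM with Foxa1, at 100.1 and 94.2 CPM with Foxa2 and at 98.7 and 100.8 CPM with Foxa3, and at 71.5 and 83.9 CPM in Foxa3 del2 cells. In iHep cells it ran between 203 and 542 CPM with Foxa1 (median 285), stood at 535, 419, 199 and 268 CPM with Foxa2, and ran between 205 and 266 CPM with Foxa3 (median 233). Every iHep library lay over every 48 h library, while the iHep and MEF ranges overlapped. The rise between 48 h and iHep was 1.92 with Foxa1 (SE 0.43, edgeR adjusted p = 0.00121), 1.87 with Foxa2 (SE 0.44, edgeR adjusted p = 0.00232) and 1.23 with Foxa3 (SE 0.41, edgeR adjusted p = 0.0202). The Foxa1 and Foxa2 calls were kept without any 1 library, and the Foxa3 call was lost without either 48 h library, at 0.131 at most. Hep, at 72.8 and 28.3 CPM, was lower than all 3 kinds of iHep cell, which differed from it by 2.77, 2.81 and 2.21 (SE 0.46, 0.47 and 0.44; edgeR adjusted p = 1.98e-05, 2.38e-05 and 0.000164), and lower than MEFs by -2.15 (SE 0.49, edgeR adjusted p = 0.000741).

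Other genes that the signals known to act on Ddit4 induce moved between 48 h and iHep as well. Over all genes tested, 21.2% were called higher and 20.7% lower with Foxa1, 20.4% and 19.7% with Foxa2, and 19.6% and 21.0% with Foxa3. Of 6 glucocorticoid-induced genes, 5 rose with Foxa1, 6 with Foxa2 and 5 with Foxa3, and none fell, with a median of 2.44, 3.40 and 2.58 on the log2 scale. Fkbp5, a glucocorticoid receptor co-chaperone, averaged 566 ± 145 CPM in Foxa1 iHep cells (SD, n = 6), 833 ± 267 CPM in Foxa2 iHep cells (SD, n = 4) and 595 ± 177 CPM in Foxa3 iHep cells (SD, n = 6), against 24.2 to 25.8 CPM on average in the 48 h groups. Of 8 hypoxia-induced genes 4, 5 and 6 rose and 1, 1 and 2 fell with Foxa1, Foxa2 and Foxa3, and of 8 p53 target genes 4, 6 and 4 rose and none fell. In Foxa3 del2 cells 4 of the 6 glucocorticoid-induced genes were higher than in MEFs (Fkbp5, Zbtb16, Per1 and Sgk1), with Fkbp5 at 250 ± 10.4 CPM (SD, n = 2). Ddit4 was called lower in that comparison. Over all genes tested, 7.78% were called higher and 8.05% lower there. The part of these signals in the level of Ddit4 was not tested.

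Hspa5 encodes BiP, the main Hsp70 chaperone of the endoplasmic reticulum and a negative regulator of its stress sensors. It stood at 1499.6 and 1129 CPM in MEFs and between 839.9 and 922 CPM in the 6 libraries at 48 h, a difference that did not pass the test (log2 -0.56, -0.53 and -0.62). The iHep libraries ran between 1068 and 2725 CPM with Foxa1 (median 1355), stood at 1008, 1278, 761 and 1069 CPM with Foxa2, and ran between 1333 and 2072 CPM with Foxa3 (median 1782). All Foxa1 and Foxa3 iHep libraries lay over all 48 h libraries of their factor, while the Foxa2 iHep range held the 48 h values. The rise between 48 h and iHep was 0.94 with Foxa1 (SE 0.33, edgeR adjusted p = 0.0280), lost without either 48 h library or iHep replicate 5 or 6, at 0.151 at most. With Foxa3 it was 1.05 (SE 0.34, edgeR adjusted p = 0.0159), lost without either 48 h library, at 0.119 at most. In the high Rn7sk libraries alone the rise was 1.34 with Foxa1 and 1.04 with Foxa3, and both were called. Hep held 2486 and 1809 CPM, which Foxa2 iHep cells fell short of by -1.06 (SE 0.32, edgeR adjusted p = 0.00727; 0.107 without Hep replicate 1); by limma on log2(FPKM + 1) that difference was -0.09 and did not pass (limma adjusted p = 0.811). The difference of Hep from MEFs, 0.71, did not pass the test. Its direction turned in FPKM, which has no TMM scaling, at 445 ± 82.8 FPKM in Hep and 483 ± 92.1 FPKM in MEFs (SD, n = 2 each). Hspa5 overlaps Rabepk in RefSeq's annotation, and reads of the overlap may be shared.

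Herpud1 encodes a membrane protein of endoplasmic reticulum-associated degradation. It stood at 31.5 and 36.4 CPM in MEFs and between 36.5 and 41.5 CPM in the 6 libraries at 48 h, which lay just over the MEF libraries without passing the test (log2 0.21, 0.15 and 0.21). With library set as a term these differences turned to -1.43, -1.49 and -1.43, again without passing (edgeR adjusted p = 0.162, 0.141 and 0.160). The iHep level ran between 39.7 and 434 CPM with Foxa1 (median 131), between 57.5 and 195 CPM with Foxa3 (median 151), and stood at 48.7, 83.0, 44.2 and 27.9 CPM with Foxa2. Hep held 297 and 232 CPM. The rise between 48 h and iHep was 2.07 with Foxa1 (SE 0.65, edgeR adjusted p = 0.0138), with groups that overlap, and 1.87 with Foxa3 (SE 0.64, edgeR adjusted p = 0.0230). Both calls were lost without either 48 h library, at 0.117 and 0.141 at most, and both were kept in the high Rn7sk libraries alone, at 2.68 and 2.00. Against MEFs the rise was 2.28 with Foxa1 (SE 0.66, edgeR adjusted p = 0.00857) and 2.08 with Foxa3 (SE 0.65, edgeR adjusted p = 0.0120). These calls were lost without either MEF library, at 0.0932 and 0.105 at most, and among the low Rn7sk libraries alone, where the differences were 1.13 (adjusted p = 0.0647) and 0.76 (adjusted p = 0.348). With library set as a term the Foxa3 difference was 0.63 and lost its call (adjusted p = 0.316). Hep was higher than MEFs by 2.96 (SE 0.75, edgeR adjusted p = 0.00191), and Foxa2 iHep cells were lower than Hep by -2.38 (SE 0.58, edgeR adjusted p = 0.00125).

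**Figure D2:**
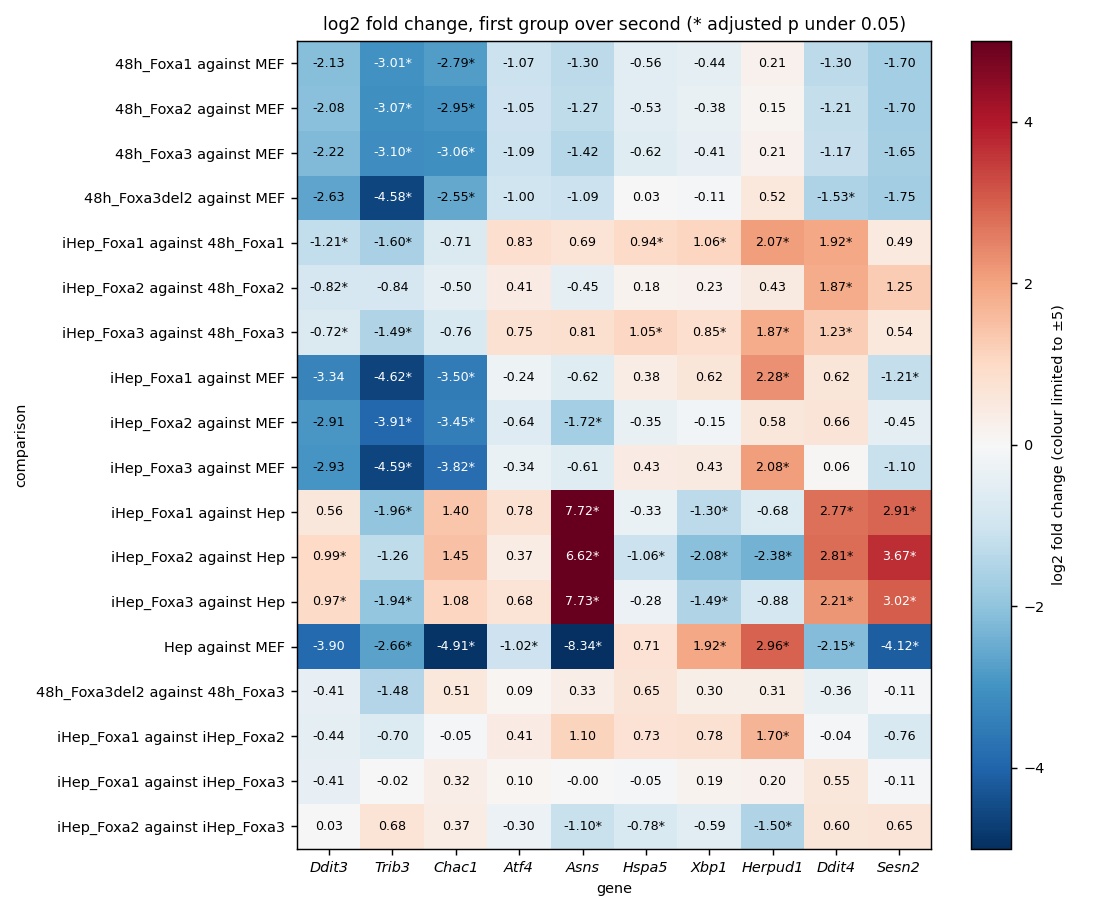
Log2 difference of the first over the second group for the 10 genes (columns) in 18 comparisons (rows). Colour is limited to 5 in either direction, and a star marks an edgeR adjusted p under 0.05. Ddit3 against MEFs is given no star in any row, because its fall against MEFs was a reason for including it. Trib3 and Chac1 are starred as lower against MEFs in every infected group, while Hspa5, Xbp1 and Herpud1 are starred as higher in Foxa1 and Foxa3 iHep cells than at 48 h.

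Read as a group at 48 h, the 9 members other than Ddit3, set against MEFs, gave 2 called lower (Trib3 and Chac1) and none called higher with each factor. Over all genes tested, 5.25% were called with Foxa1 (2.13% higher and 3.12% lower), 5.48% with Foxa2 (2.2% higher and 3.28% lower) and 5.21% with Foxa3 (2.22% higher and 2.98% lower). The members' median log2 difference was -1.30, -1.21 and -1.17, against 0.04, 0.06 and 0.06 over all genes tested. All 9 had groups that did not overlap, as had 71.1%, 72.1% and 72.7% of all genes tested with Foxa1, Foxa2 and Foxa3. The 3 comparisons share both MEF libraries. Leaving out any 1 library left no member called in any of them, and with library set as a term Trib3 and Chac1 were no longer called and Atf4 was, together with Asns for Foxa3 (log2 -2.31, edgeR adjusted p = 0.0485). That term is carried over from iHep cells.

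The wider lists of the pathway, chosen like the members with earlier results of these data known, were read in the same 3 comparisons at 48 h. The shares of all genes called in them, given above, apply here too. The list counts share both MEF libraries and cross the library sets. They are given without a library left out or a term for library set. Of 28 further ATF4 and CHOP target genes, 12 were called lower with Foxa1, 11 with Foxa2 and 12 with Foxa3, and none higher, with medians of -1.12, -1.19 and -1.19. Of the 12 aminoacyl-tRNA synthetases that ATF4 induces, which load transfer RNAs with amino acids, 10, 11 and 10 were called lower. Aars, the alanyl enzyme, averaged 198 ± 7.62 CPM with Foxa1, 201 ± 2.70 CPM with Foxa2 and 196 ± 5.72 CPM with Foxa3, against 648 ± 44.0 CPM in MEFs (SD, n = 2 each). Pck2, the mitochondrial phosphoenolpyruvate carboxykinase, averaged 53 ± 3.54, 52.5 ± 0.999 and 55.8 ± 3.18 CPM at 48 h with Foxa1, Foxa2 and Foxa3, against 150 ± 16.5 CPM in MEFs (SD, n = 2 each). Of 20 endoplasmic reticulum chaperones and folding enzymes, 1 was called lower with each factor (Ero1a, an oxidase of disulphide formation), of 14 degradation genes 1 (Derl1), and of 9 stress sensors and transducers none with edgeR. Among the translocon and signal peptidase genes 2, 2 and 3 of 15 were called lower and none higher. Of 9 leukocyte markers tested, 5 were called lower with each factor, and their part in these differences was not tested.

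**Figure D3:**
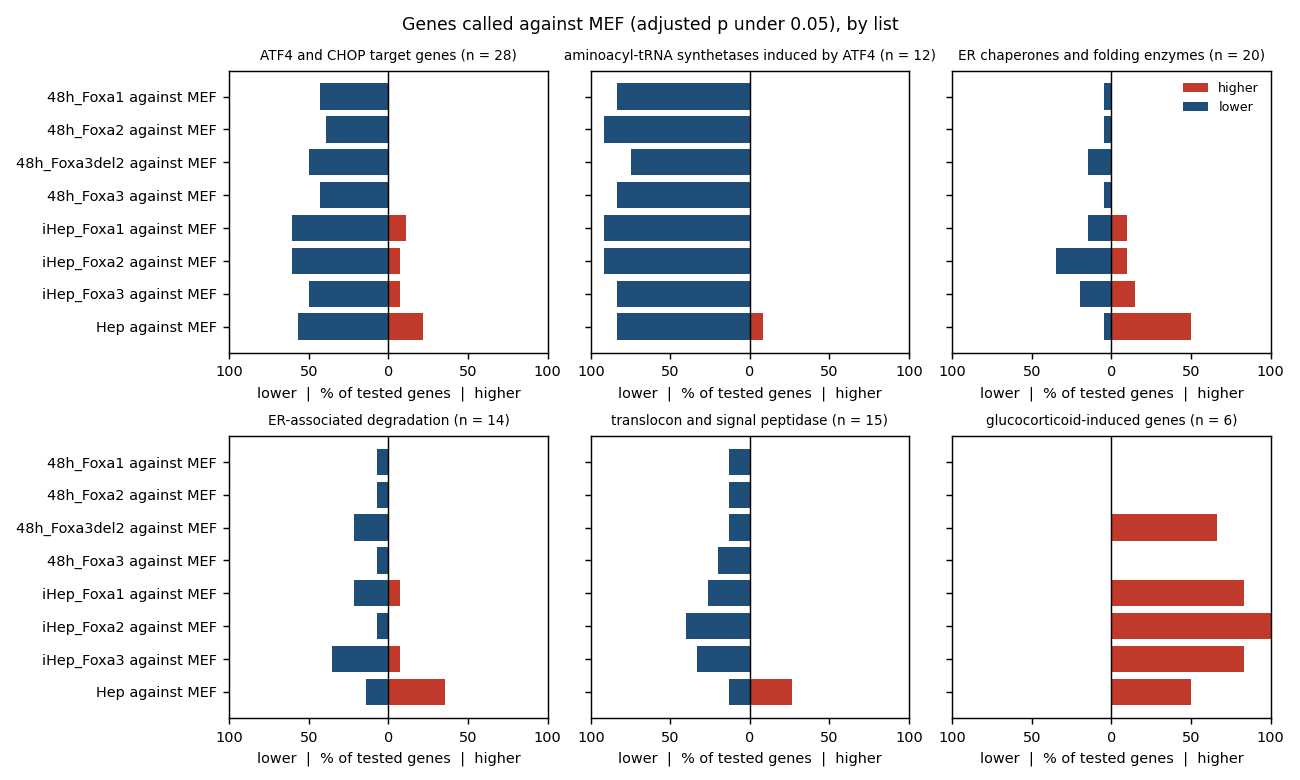
Percent of tested genes called higher (right, red) or lower (left, blue) than in MEFs for 6 gene lists, each in the infected groups and in Hep, at an edgeR adjusted p under 0.05. The lists of ATF4 and CHOP targets and of tRNA synthetases extend to the left in every group, and the chaperone list extends to the right mainly in Hep, where 10 of 20 genes were called higher.

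In Foxa3 del2 cells 3 of 9 members were called lower than in MEFs and none higher, with 15.8% of all genes called (7.78% higher and 8.05% lower) and medians of -1.09 over the members and 0.01 over all genes. Trib3 differed by -4.58 (SE 0.90, edgeR adjusted p = 0.00201) and was kept without any 1 library. Chac1 differed by -2.55 (SE 0.75, edgeR adjusted p = 0.0237), lost without any 1 of the 4 libraries at 0.174 at most. Ddit4 differed by -1.53 (SE 0.48, edgeR adjusted p = 0.0326), lost without MEF replicate 2 or either del2 library at 0.284 at most. A term for library set also called Atf4 (-1.0, edgeR adjusted p = 0.0201) and Sesn2 (-1.75, edgeR adjusted p = 0.00461) lower. These libraries and the MEF libraries are both of low Rn7sk, so this comparison does not cross the library sets. Of the ATF4 and CHOP target genes 14 of 28 were called lower and none higher, of the tRNA synthetases 9 of 12, and of the stress sensors 3 of 9, among them Eif2ak3, which encodes PERK. Leukocyte markers were called lower for 2 of 9, and fibroblast markers, at 7109 to 8568 CPM in sum, for 1 of 6; their part was not tested.

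Set against 48 h Foxa3 cells, Foxa3 del2 cells had no member called by edgeR, none at an unadjusted p under 0.05 and none by DESeq2, with 2.98% of all genes called (1.4% higher and 1.58% lower). The groups did not overlap for 9 of the 10 members and for 78.4% of all genes tested. Trib3 differed by -1.48 (edgeR adjusted p = 0.36) and Hspa5 by 0.65 (edgeR adjusted p = 0.422). With library set as a term Hspa5 (log2 1.32, adjusted p = 0.0117) and Herpud1 (log2 1.95, adjusted p = 0.0197) were called higher. These calls rest on a set difference carried over from iHep cells. Set against Foxa3 iHep cells instead, 1 member was called, Ddit4, lower by -1.60 (SE 0.42, edgeR adjusted p = 0.00589), with 32.7% of all genes called (16.9% higher and 15.7% lower).

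Between 48 h and iHep the members moved in both directions. Ddit3 is counted here, although its low level after 48 h was known when it was included. With Foxa1, 4 of 10 were called higher (Hspa5, Xbp1, Herpud1 and Ddit4) and 2 lower (Ddit3 and Trib3), with 42.0% of all genes called (21.2% higher and 20.7% lower). With Foxa3 the counts were 4 higher and 2 lower, with 40.6% of all genes called (19.6% higher and 21.0% lower). With Foxa2, 1 was called higher (Ddit4) and 1 lower (Ddit3), with 40.1% of all genes called (20.4% higher and 19.7% lower). Once library set was a term, Atf4 was also called higher with Foxa1 (1.20, edgeR adjusted p = 0.00171), Foxa2 (1.31, edgeR adjusted p = 0.00662) and Foxa3 (0.88, edgeR adjusted p = 0.0100), and Herpud1 was called higher with Foxa2 as well (2.08, edgeR adjusted p = 0.00695), while Ddit3 was not called with Foxa2. In the high Rn7sk libraries alone Atf4 was higher with Foxa1 (1.24, edgeR adjusted p = 0.00214) and Foxa3 (0.82, edgeR adjusted p = 0.0200), and Asns with Foxa1 (1.30, edgeR adjusted p = 0.0103). Foxa2 has no such comparison within a set, and its calls with the term rest on a set difference carried over from Foxa1 and Foxa3 iHep cells. The members' medians were 0.76, 0.21 and 0.78 with Foxa1, Foxa2 and Foxa3, against 0.08, 0.02 and 0.05 over all genes. Whether the change between 48 h and iHep differed between factors was tested as an interaction, and no gene of the 16499 passed for any pair of factors; no member passed at an unadjusted p under 0.05 or by DESeq2. The Foxa2 course is therefore not shown to differ.

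Of the chaperones and folding enzymes, 7 of 20 rose between 48 h and iHep with Foxa1, 5 with Foxa2 and 7 with Foxa3, and 1, 4 and 1 fell. The counts in this paragraph stand beside 21.2%, 20.4% and 19.6% of all genes tested that rose, and 20.7%, 19.7% and 21.0% that fell. Sdf2l1, a component of the BiP cycle, averaged 88.9 ± 26.7 CPM in Foxa1 iHep cells (SD, n = 6), against 7.70 ± 0.292 CPM at 48 h (SD, n = 2). Hyou1, the nucleotide exchange factor of BiP, averaged 256 ± 68.2 CPM in Foxa1, 181 ± 40.0 CPM in Foxa2 and 292 ± 54.3 CPM in Foxa3 iHep cells (SD, n = 6, 4 and 6), against 127 to 130 CPM on average at 48 h. Of the degradation genes 3, 2 and 3 of 14 rose and 1, 0 and 0 fell. Of the ATF4 and CHOP target genes 7, 7 and 9 of 28 rose and 3, 3 and 4 fell, with medians of 0.09, 0.23 and 0.39, and of the synthetases 2, 1 and 1 of 12 rose and 4, 2 and 2 fell. Of 10 genes for eIF2, its kinases and its exchange factor 7, 6 and 4 rose, and of 10 cytosolic heat shock genes 6, 6 and 4, with none falling in either list.

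Set against MEFs, Foxa1 iHep cells had 1 of 9 members called higher (Herpud1) and 3 lower (Trib3, Chac1 and Sesn2), with 39.9% of all genes called (20% higher and 19.9% lower). Foxa2 iHep cells had none higher and 3 lower (Trib3, Chac1 and Asns), with 30.7% called (15.3% higher and 15.5% lower), and Foxa3 iHep cells 1 higher (Herpud1) and 2 lower (Trib3 and Chac1), with 46.6% called (22.9% higher and 23.7% lower). Adding library set as a term called Atf4 (-0.77 and -1.12; edgeR adjusted p = 0.0257 and 0.00529) and Asns (-1.25 and -1.28; edgeR adjusted p = 0.0404 and 0.0395) lower in Foxa1 and Foxa3 iHep cells too. The members' medians were -0.24, -0.45 and -0.34, against 0.08, 0.06 and 0.05 over all genes. Of the ATF4 and CHOP target genes 17, 17 and 14 of 28 were lower and 3, 2 and 2 higher, and of the synthetases 11, 11 and 10 of 12 were lower and none higher. Slc7a5, a transporter of large neutral amino acids, averaged 34.5 CPM in Foxa1, 44.5 CPM in Foxa2 and 46.7 CPM in Foxa3 iHep cells, against 223 CPM in MEFs. Chaperones moved both ways, with 3, 7 and 4 of 20 lower and 2, 2 and 3 higher. Fibroblast markers fell for 5, 4 and 6 of 6 and leukocyte markers for 8 of 9 in each, and their part was not tested.

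Of the 9 members other than Ddit3, Hep differed from MEFs at 8, with 6 called lower (Atf4, Trib3, Chac1, Asns, Sesn2 and Ddit4) and 2 higher (Xbp1 and Herpud1), and 56.9% of all genes called (24.3% higher and 32.6% lower). The median of the 9 was -2.15, against -0.29 over all genes, and none had overlapping groups, nor had 81.6% of all genes tested. Hspa5 was called higher with library set as a term (0.71, edgeR adjusted p = 0.0483). Of the ATF4 and CHOP target genes 16 of 28 were lower and 6 higher; the higher ones included Cth, the cystathionine lyase of cysteine synthesis, at 1328 ± 12.2 CPM in Hep against 14.7 ± 3.54 CPM in MEFs (SD, n = 2 each). Of the chaperones 10 of 20 were higher and 1 lower (Ero1a). Dnajc3, a BiP co-chaperone, averaged 562 ± 124 CPM in Hep (SD, n = 2), against 164 CPM in MEFs. Of the stress sensors and transducers 2 of 9 were higher (Creb3l3, a liver transcription factor of the ATF6 type, and Atf6) and 6 lower. Leukocyte and Kupffer cell markers summed to 335 to 411 CPM in Hep and 19.4 and 251 CPM in MEFs, and their part was not tested.

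Of the 10 members, 3 were higher in Foxa1 iHep cells than in Hep (Asns, Ddit4 and Sesn2) and 2 lower (Trib3 and Xbp1), with 60.1% of all genes called (35.3% higher and 24.8% lower). In Foxa2 iHep cells 4 were higher (those 3 and Ddit3) and 3 lower (Xbp1, Hspa5 and Herpud1), with 60.6% called (35.2% higher and 25.4% lower), and in Foxa3 iHep cells 4 were higher and 2 lower (Trib3 and Xbp1), with 61.9% called (35.3% higher and 26.7% lower). Adding library set as a term called Hspa5 (-0.74 and -0.82; edgeR adjusted p = 0.0194 and 0.0161) and Herpud1 (-1.75 and -2.33; edgeR adjusted p = 0.000903 and 0.000175) lower in Foxa1 and Foxa3 iHep cells too. By limma on log2(FPKM + 1) Atf4 was called higher in all 3 kinds, by 1.61, 1.33 and 1.51. The members' medians were 0.67, 0.68 and 0.82, against 0.42, 0.42 and 0.39 over all genes. Of the chaperones 12, 14 and 12 of 20 were lower in iHep cells and 1 higher in each, and of the degradation genes 7, 8 and 8 of 14 were lower and 2, 2 and 1 higher. Of the ATF4 and CHOP target genes 15 of 28 were higher in each and 8, 6 and 6 lower. All 9 leukocyte markers tested were lower in each kind of iHep cell than in Hep, and their part was not tested.

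Between the kinds of iHep cell, Herpud1 was higher with Foxa1 than with Foxa2 by 1.70 (SE 0.48, edgeR adjusted p = 0.0296), the 1 member called, with 11.0% of all genes called (7.1% higher and 3.87% lower). The call was lost without Foxa1 replicate 5 or 6 or Foxa2 replicate 1, 3 or 4, at 0.0975 at most, and with library set as a term, at 0.382; DESeq2 called Asns, Hspa5 and Xbp1 higher as well. With Foxa2 3 members were lower than with Foxa3, with 31.1% of all genes called (16.0% higher and 15.1% lower): Asns by -1.10 (SE 0.40, edgeR adjusted p = 0.0417), Hspa5 by -0.78 (SE 0.25, edgeR adjusted p = 0.0249) and Herpud1 by -1.50 (SE 0.47, edgeR adjusted p = 0.0212). Asns was lost without any 1 Foxa2 library or Foxa3 replicate 1, 5 or 6, Hspa5 without Foxa2 replicate 1, 3 or 4, and Herpud1 without Foxa2 replicate 3 or 4, at 0.0975, 0.0863 and 0.0708 at most. With library set as a term all 3 calls were lost, at 0.598, 0.64 and 0.983. Between Foxa1 and Foxa3 no member was called by edgeR, 1 passed at an unadjusted p under 0.05 and none was called by DESeq2, with 8.32% of all genes called (4.41% higher and 3.92% lower).

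Within Foxa1 iHep cells, where 3 libraries are of high and 3 of low Rn7sk, several members differed with the set. Herpud1 averaged 254 CPM in the high and 76.3 CPM in the low libraries (log2 1.82, edgeR adjusted p = 0.00185), and Hspa5 averaged 2285 and 1139 CPM (log2 1.10, edgeR adjusted p = 0.000808). Asns averaged 102 CPM in the high and 30.1 CPM in the low libraries (log2 1.85, edgeR adjusted p = 0.000391), and Atf4 322 and 160.3 CPM (log2 1.10, edgeR adjusted p = 0.00267). Sesn2 went the other way, at 42.8 CPM in the high and 84.4 CPM in the low libraries (log2 -0.89, edgeR adjusted p = 0.0494). In that comparison 35.3% of the 17019 genes tested were called (17.4% higher and 17.9% lower), so the members' differences stand among many between libraries of the same label.

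Across the 28 libraries the members formed groups by correlation of log2(CPM + 1), which describes libraries that share group, set and depth and carries no test. Xbp1 and Herpud1 had Pearson's r = 0.86, Hspa5 and Herpud1 0.83, and Hspa5 and Xbp1 0.78; over the 16 iHep libraries alone the first pair kept 0.84 and the second 0.80. Ddit3 and Chac1 had 0.87, Trib3 and Chac1 0.76 and Ddit3 and Trib3 0.75, but over the iHep libraries Ddit3 and Chac1 had 0.28. Sesn2 ran against Herpud1, at -0.60 over all libraries and -0.82 over the iHep libraries. Of all other genes tested, the one most like each member was Hyou1 for Hspa5 (r = 0.92), Pck2 for Asns (0.94), Snx8 for Trib3 (0.93), Socs3 for Ddit4 (0.90), Bdh1 for Xbp1 (0.94), Rabggta for Herpud1 (0.95), Lrrc27 for Ddit3 (0.90), Arfgap1 for Chac1 (0.87), Abhd8 for Sesn2 (0.93) and Srp19 for Atf4 (0.83).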

How the data were processed

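Poly(A) RNA libraries (TruSeq Stranded mRNA, per the labels' protocols) of 28 samples were deposited as 1 table each, with expected counts (Z), FPKM and a fraction (THETA) for 30710 transcripts. The expected counts, deposited by the authors and named so per the file headers, had at most 7 values per table that were not whole (tolerance 1e-09). The deposited FPKM could be recomputed from them within 0.459%, and the deposited fraction, THETA, which sums to 0.632 to 0.877 per library, was not used in any comparison. BWA 0.7.12 and mm9 are named in the submitters' processing notes; the settings of the counting tool, strand included, were not given in the sources used here. RefSeq and GENCODE names were matched for 30190 and 181 transcripts; the 339 unnamed, holding 0.609% to 3.21% of the counts, were left out.

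Expected counts were summed per gene (23712), rounded, and fitted with edgeR 4.0.16 (R 4.3.3; TMM, filterByExpr, robust quasi-likelihood fit, 1 coefficient per group, 19 residual degrees of freedom), adjusting by Benjamini-Hochberg over all genes tested. Where no other tool is named, adjusted p-values are of that test. Library totals set the counting precision; 3 counts are taken as the floor. Alternatives were DESeq2 1.42.0, its size factors, no filter, library set as a term, a replicate number block, the compared groups alone, each library left out, and limma 3.58.1 on log2(FPKM + 1) with 14337 genes of at least 1 FPKM in 2 libraries. Rn7sk over 10 CPM defines the high library set. The fit was tested on simulated counts for Foxa1 iHep cells against MEFs, of 16124 genes with 200 changed. It recovered 30% of 2-fold and 79% of 4-fold changes, and 4.39% of its calls were false. The simulated counts held no other difference between groups and none between library sets, so these rates do not cover either. Comparisons of 2 libraries with 2 are not covered by them. The members and gene lists were chosen with earlier results of these data known. All 10 members are named; of each list, up to 4 called genes with the smallest p and up to 4 with the highest CPM may be named. Overlaps between genes are from RefSeq's table, by name.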

Additional observations from a re-analysis of the deposited data

Results flagged for a closer look

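Of 30 groups of 4 to 6 iHep libraries checked (10 genes in 3 kinds of iHep cell), 3 held 1 library far from the rest, against about 1 in 20 by chance. Trib3 stood at 9.53 CPM in replicate 1 of Foxa2 iHep cells, where the next library held 3.99 CPM. Chac1 stood at 3.32 CPM in the same library, where the next held 1.92 CPM. Sesn2 stood at 159 CPM in replicate 1 of Foxa3 iHep cells, where the next held 57.9 CPM; that library is the one of its group with low Rn7sk.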

How the results depend on the processing

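No call of a member reversed. Of 109 member differences that were not called, 15 turned direction with library set as a term, 6 by limma on FPKM, 5 with the replicate block and 3 by DESeq2. Counting Hep against MEFs over all 10 members, as planned, gives 9 called; counting without Ddit3, chosen after seeing the data, gives 8. Of 64 calls of single members, DESeq2 kept 63, DESeq2's size factors 62, no filter 60, limma 57, the replicate block 56, the compared groups alone 53 and library set as a term 50; 12 of 12 were kept among high and 14 of 22 among low Rn7sk libraries, and 315 of 424 when 1 library was left out. Counts of members called moved as follows, with only part of the moves listed. Against MEFs, DESeq2 gave 3 for 48 h Foxa2, 3 for 48 h Foxa3, 4 for Foxa3 del2 and 4 for Foxa3 iHep. It gave 8 for Foxa2 iHep against Hep and 8 of 10 for Hep against MEFs. Against MEFs, 48 h Foxa1 (2 called) gave 1 with no filter, 1 with library set, 4 with DESeq2 and 8 with the groups alone; 48 h Foxa2 (2) gave 1 with library set and 7 with the groups alone; 48 h Foxa3 (2) gave 8 with the groups alone; Foxa3 del2 (3) gave 5 with library set and 7 with the groups alone; Foxa1 iHep (4) gave 2 with the groups alone. Against 48 h with the groups alone, Foxa1 iHep (6) gave 2 and Foxa2 iHep (2) gave 4. Foxa3 del2 against 48 h Foxa3 (0) gave 2 with library set, 8 with the groups alone and 1 against Foxa3 iHep instead. Foxa1 against Foxa2 iHep (1) gave 2 with DESeq2's size factors, 2 with no filter, 4 with DESeq2, and 0 with library set, the groups alone, limma or low Rn7sk libraries. Foxa2 against Foxa3 iHep (3) gave 0 with library set or low Rn7sk libraries. The cause of these moves was not tested.

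Replicate numbers do not pair the libraries: between kinds of iHep cell, same-numbered deviations correlated at 0.0416 to 0.163 (Foxa1 and Foxa2), -0.208 to 0.341 (Foxa1 and Foxa3) and -0.0619 to 0.143 (Foxa2 and Foxa3), and 2 of 8, 3 of 12 and 2 of 8 libraries correlated best with their own number. With the replicate block the counts were 4, 4 and 4 for 48 h Foxa1, Foxa2 and Foxa3 against MEFs, 5 for Foxa3 del2 against MEFs, 0 for Foxa1 against Foxa2 iHep and 0 for Foxa2 against Foxa3 iHep.

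Leaving out 1 library gave 0 to 0 members called for each 48 h group against MEFs, 1 to 2 for Foxa3 del2, 2 to 5, 2 to 3 and 2 to 4 for Foxa1, Foxa2 and Foxa3 iHep against MEFs, 2 to 7, 1 to 2 and 0 to 5 against 48 h, 5 to 6, 5 to 8 and 5 to 6 against Hep, 7 to 8 for Hep against MEFs, 0 to 0 for del2 against 48 h Foxa3, 0 to 5, 0 to 0 and 0 to 3 for Foxa1 against Foxa2, Foxa1 against Foxa3 and Foxa2 against Foxa3 iHep, 0 to 0 for the interactions, and 48.7% to 48.7% for the median Xbp1 share. DESeq2's size factors moved the median of all genes by -0.21, -0.24 and -0.23 (Foxa1, Foxa2 and Foxa3 iHep against Hep) and 0.16 (Hep against MEFs) on the log2 scale. Groups of 2 libraries and the few counts of Asns and Chac1 in Hep limit the precision.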
